A study of Arabidopsis thaliana with 8 samples.

Results

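The messenger RNA profile of wild-type Arabidopsis thaliana seedlings was taken from 2 of the 8 libraries of the series, the wild-type mRNA libraries. The loci of the count table were ranked by their mean RPKM, reads per kilobase of locus length, scaled to the total counts of the library. All 20701 loci of the table were ranked, and none had a missing value in either library. A locus without counts was kept, as were 9 such loci in replicate 1 and 3 in replicate 2. The seedlings were wild type of the cultivar Columbia with no transgene, grown at 22 °C with 18 h of light and 6 h of dark and harvested whole 10 days after germination. Each library was made from 4 µg of total RNA from a pool of 50 seedlings, so a value is an average over seedlings and over organs. The labels call the pools biological replicates 1 and 2, and both belong to the same group. Differences between them are therefore given as sizes, with no test and no p-value. The transgenic libraries were not used.

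A seedling of this age has opened its cotyledons and first leaves and makes most of its own carbon. In green cells, light-harvesting complexes of chlorophyll-binding proteins pass light energy to photosystems II and I. The electrons then move through plastocyanin and ferredoxin, and the resulting energy carriers drive carbon fixation by Rubisco and the Calvin cycle. Most subunits of these machines are encoded in the nucleus by small gene families, while the reaction centres and the large subunit of Rubisco are encoded in the plastid genome.

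The libraries held 15682546 counts in replicate 1 and 19436632 in replicate 2. The chi-square of the counts of the pools was 10.1 per degree of freedom over the loci, so they are separate libraries and not one deposited again. Nuclear protein-coding loci took 90.8% of the counts in replicate 1 (95% Wilson interval 90.81 to 90.84%) and 90.4% in replicate 2 (90.41 to 90.44%). The 4 nuclear loci annotated as ribosomal RNA took 4.27% (4.26 to 4.28%) and 4.40% (4.39 to 4.41%) of the counts of replicates 1 and 2. The 112 plastid loci took 3.76% (3.75 to 3.77%) and 4.00% (3.99 to 4.01%), and the 65 mitochondrial loci 0.196% (0.193 to 0.198%) and 0.195% (0.193 to 0.197%). These intervals cover counting error only. The length column, headed as the transcript's length, lay close to the whole gene span in the name table, introns included, with a median ratio of 0.939. An intron-rich gene may therefore have a lower RPKM here than its spliced length would give.

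Abundance was uneven, and a few loci held much of it. A mean RPKM of at least 1 was reached by 18588 loci (89.8%) and of at least 10 by 7487 (36.2%). At least 100 was reached by 700 (3.38%) and at least 1000 by 57 (0.275%). The ranked loci include 20093 nuclear protein-coding loci, whereas the name table has 27562 protein-coding genes. Shares and medians over all loci are therefore over the ranked loci and not over the genome. The 10 most abundant loci held 14.7% of the summed RPKM in replicate 1 and 14.4% in replicate 2, the 100 most abundant 36.6% and 36.0%, and the 1000 most abundant 63.0% and 62.7%. The upper 50% of the summed RPKM lay in 343 loci of replicate 1 and 353 of replicate 2. Of the counts, without the division by length, 50% lay in 740 and 753 loci. The most abundant loci were short, with a median length of 1180 bases for the upper 100 against 2154 bases for all loci.

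**Figure D1:**
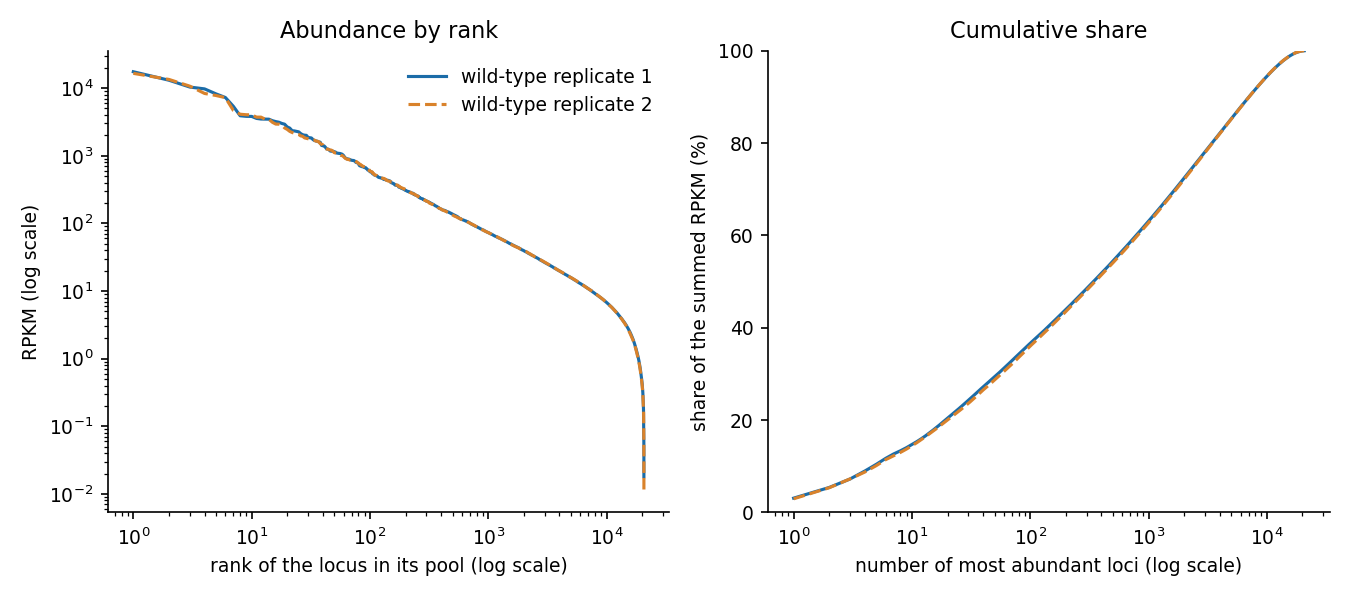
RPKM of each locus against its rank within its pool (left, both axes logarithmic) and the cumulative share of the summed RPKM in percent against the number of most abundant loci (right, logarithmic horizontal axis), for wild-type replicates 1 (solid) and 2 (dashed). The curves of the pools lie on each other, and the 1000 most abundant loci hold 63.0% in replicate 1 and 62.7% in replicate 2.

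Photosynthesis led the profile. Of the 100 most abundant loci, 48 belonged to 4 lists of nuclear photosynthesis genes: 16 encoded light-harvesting proteins, 19 photosystem subunits, 4 parts of electron transport or the plastid ATP synthase, and 9 Rubisco or Calvin cycle proteins. The 4 lists together hold 74 loci, and 70 of them were among the 1000 most abundant. They held 21.7% of the summed RPKM in replicate 1 and 20.1% in replicate 2, or 20.9 ± 1.12% (SD, n = 2). The median over their loci was 889 RPKM, against 6.43 RPKM over all loci. Of the 25 most abundant loci, 16 were in these lists. Ranked without length, 46 of the 100 loci with the highest CPM, the counts scaled to the library total, were in the lists.

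The light-harvesting list, 21 loci for the chlorophyll a/b-binding antenna proteins, held 10.5% of the summed RPKM in replicate 1 and 9.29% in replicate 2. CAB1 (AT1G29930), which encodes the LHCB1 protein of the main photosystem II antenna, was the most abundant locus of the table, with 17475 RPKM in replicate 1 and 16538 RPKM in replicate 2. It alone took 1.82% (95% Wilson interval 1.816 to 1.829%) and 1.72% (1.719 to 1.731%) of the counts. LHB1B2 (AT2G34420) at 9745 and 8342 RPKM and CAB3 (AT1G29910) at 5392 and 4693 RPKM in replicates 1 and 2 encode the same protein, as do CAB2 (AT1G29920) at 2929.9 and 2294 RPKM and LHB1B1 (AT2G34430) at 2565 and 2207 RPKM. The 5 LHCB1 copies together reached 38107 RPKM in replicate 1 and 34073 RPKM in replicate 2, which is 6.74% and 6.08% of the whole. They stand as neighbours in the name table, CAB3 beside CAB2 beside CAB1 on chromosome 1 and LHB1B2 beside LHB1B1 on chromosome 2. These copies are near-identical and the sources used here do not say how reads that match several of them were treated, so their split and, if such reads were dropped or counted more than once, their sum are uncertain. The models of CAB1 and LHB1B2 also overlap other annotated genes with far lower counts.

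The photosystem I antenna genes LHCA1 to LHCA4 lay between 1623 RPKM for LHCA1 (AT3G54890) and 2986 ± 207 RPKM for LHCA3 (AT1G61520; SD, n = 2). LHCA3 had 3133 RPKM in replicate 1 and 2839.6 RPKM in replicate 2, and LHCA4 (AT3G47470) had 2296 and 2062 RPKM. LHCB3 (AT5G54270), a part of the trimeric antenna of photosystem II, had 2346 and 1838 RPKM in replicates 1 and 2. Of the single antenna proteins that link the trimers to the core, LHCB4.1 (AT5G01530) had 2259 and 2157 RPKM, and LHCB5 (AT4G10340) averaged 1572 ± 124 RPKM and LHCB6 (AT1G15820) 1399.6 ± 263 RPKM (SD, n = 2 each). The LHCB2 copies were lower, LHCB2.1 (AT2G05100) at 1139 and 754 RPKM and LHCB2.2 (AT2G05070) at 1088 and 746 RPKM. A few family members stood far below the rest. LHCB4.3 (AT2G40100) had 6.15 and 5.83 RPKM, so that LHCB4.1 was 367 and 369.9 times as high in replicates 1 and 2. LHCB7 (AT1G76570) had 5.91 and 4.35 RPKM, and Lhca5 (AT1G45474) and Lhca6 (AT1G19150) averaged 53.6 and 112 RPKM. The list thus ran from 5.13 to 17007 RPKM in its means.

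Of the 26 loci for photosystem subunits and their assembly, 25 were among the 1000 most abundant, and the list held 5.94% of the summed RPKM in replicate 1 and 5.61% in replicate 2. The 12 photosystem I loci summed to 16609 and 15498 RPKM and the 14 photosystem II loci to 16942 and 15903 RPKM in replicates 1 and 2. Within a pool these sums lay closer together than each did between the pools. The sums depend on which loci were listed, and plastid-encoded subunits are in neither. PSBX (AT2G06520), a small membrane subunit of photosystem II, had 3903 and 3461 RPKM. PSAG (AT1G55670), a photosystem I subunit at the antenna side, had 3473.7 and 3473.6 RPKM. PSBO1 (AT5G66570), a protein of the oxygen-evolving complex that splits water, had 3006 and 2932 RPKM. PSAD-1 (AT4G02770), which helps to dock ferredoxin on photosystem I, had 2667 and 2452 RPKM. These 4 were the highest of the list in both pools. At the other end PSBP-2 (AT2G30790) had 5.81 and 4.09 RPKM in replicates 1 and 2.

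Where a photosystem subunit is encoded by a pair of listed genes, one copy was usually well above its partner. PSBO1 was 4.24 and 4.27 times as high as PSBO2 (AT3G50820) in replicates 1 and 2, PSAD-1 2.52 and 2.69 times as high as PSAD-2 (AT1G03130), PSAE-1 (AT4G28750) 3.11 and 2.69 times as high as PSAE-2 (AT2G20260), and PSBQ-2 (AT4G05180) 2.09 and 2.23 times as high as PSBQA (AT4G21280). PSBP-1 (AT1G06680) was 345 and 433 times as high as PSBP-2. The copies of PSAH, a subunit of photosystem I, were closer, with PSAH2 (AT1G52230) 1.47 and 1.38 times as high as PSAH-1 (AT3G16140). These are ratios of RPKM within a pool, and the order within each of these pairs was the same in both pools. Reads shared between such copies could change the ratios.

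The 8 listed loci for electron carriers and the nuclear part of the plastid ATP synthase held 1.37% and 1.40% of the summed RPKM in replicates 1 and 2. All of them were among the 1000 most abundant. The list does not hold the ferredoxin gene FD1, at 381 RPKM, or the ATP synthase gene PDE334, at 586 RPKM. The share is therefore below that of the whole group. The plastocyanin gene DRT112 (AT1G20340), which encodes the copper protein that carries electrons to photosystem I, had 3199.7 and 3119.6 RPKM. Its partner PETE1 (AT1G76100) had 429.8 and 480.04 RPKM, so that DRT112 was 7.45 and 6.50 times as high. The ferredoxin gene FED A (AT1G60950) had 1599 and 1808 RPKM and exceeded FD1 (AT1G10960) 3.68 and 5.53 times. ATPC1 (AT4G04640) and ATPD (AT4G09650), for the gamma and delta subunits of the ATP synthase, averaged 896 ± 12.1 and 683 ± 36.1 RPKM (SD, n = 2 each).

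Carbon fixation followed, with 19 Rubisco and Calvin cycle loci, all among the 1000 most abundant, holding 3.96% and 3.84% of the summed RPKM. The 4 genes of the Rubisco small subunit made up most of it, with 15032 RPKM in replicate 1 and 14125 RPKM in replicate 2 together. RBCS1A (AT1G67090) had 8221 and 7778 RPKM, RBCS3B (AT5G38410) 3299 and 2940.2 RPKM, RBCS1B (AT5G38430) 1834 and 1703 RPKM and RBCS2B (AT5G38420) 1678 and 1703 RPKM in replicates 1 and 2. The last 3 are neighbours on chromosome 5 and similar in sequence, so their split is uncertain. RCA (AT2G39730), the activase that frees Rubisco of inhibiting sugars, averaged 1044 ± 69.7 RPKM, transketolase TKL1 (AT3G60750) 876 ± 0.418 RPKM and the regulator CP12-1 (AT2G47400) 841 ± 57.8 RPKM (SD, n = 2 each). GAPA (AT3G26650), a subunit of the plastid glyceraldehyde-3-phosphate dehydrogenase, averaged 743 RPKM and the aldolase FBA2 (AT4G38970) 576 RPKM. The lowest of the list were the triose-phosphate isomerase gene TIM (AT2G21170) and the epimerase gene RPE (AT5G61410), at 80.9 and 75.3 RPKM.

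The listed genes of photorespiration, which recovers the carbon of the product that Rubisco makes with oxygen, were expressed at a lower level. The 11 loci held 0.310% and 0.322% of the summed RPKM in replicates 1 and 2. Of them, 0 were among the 100 and 7 among the 1000 most abundant. The list does not cover the whole pathway, so its share is a lower limit and its highest member need not be the pathway's. The glyoxylate aminotransferase gene AGT (AT2G13360) averaged 450.3 ± 7.58 RPKM and the glycine decarboxylase gene GLDP1 (AT4G33010) 309 ± 11.1 RPKM (SD, n = 2 each). The glycolate oxidase gene GOX1 (AT3G14420) had 196 and 210.3 RPKM, and GDCH (AT2G35370), a further part of glycine decarboxylase, 194.3 and 193.9 RPKM. GLDP1 was 6.40 and 6.60 times as high as its copy GLDP2 (AT2G26080).

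The 52 loci of the upper 100 outside these lists were of several kinds. Ribosomal RNA remained in the libraries: AT3G41768 ranked 2 with 13090.1 and 13450 RPKM and AT2G01010 ranked 3 with 10375 and 10696 RPKM in replicates 1 and 2. AT3G41979 and AT2G01020, of 163 bases each, averaged 983 and 969 RPKM. All 4 have copies elsewhere in the genome, so their values depend on how the authors placed reads with several matches. A further 6 were plastid loci, recognised by the ATC code of their names. They are not in the name table, so whether each is messenger or ribosomal RNA was not assigned. Any plastid ribosomal RNA would add to the share of the 4 nuclear loci. ATCG00950 and ATCG01180 had 3818 and 4043 RPKM and 3827 and 4028 RPKM. Both are 2809 bases long and their counts were nearly equal in each pool (168193 and 168567 in replicate 1, 220726 and 219918 in replicate 2). ATCG00920 and ATCG01210, both of 1490 bases, had 81496 and 81590 counts in replicate 1 and 107832 and 107913 in replicate 2. The 4 loci held 3.19% (95% Wilson interval 3.18 to 3.20%) and 3.38% (3.37 to 3.39%) of all counts, out of the 3.76% and 4.00% of all 112 plastid loci. ATCG00470 and ATCG00020 averaged 768 and 764 RPKM. AT2G01021, a locus of 101 bases with no descriptive name, ranked 6 with 7265 and 7229.9 RPKM from 11507 and 14193 counts, and only 123 by CPM. The name table calls AT2G01021 protein-coding, so it enters the shares given for nuclear protein-coding loci. Its number follows that of the ribosomal RNA locus AT2G01020, and whether its reads come from ribosomal RNA was not tested.

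**Figure D2:**
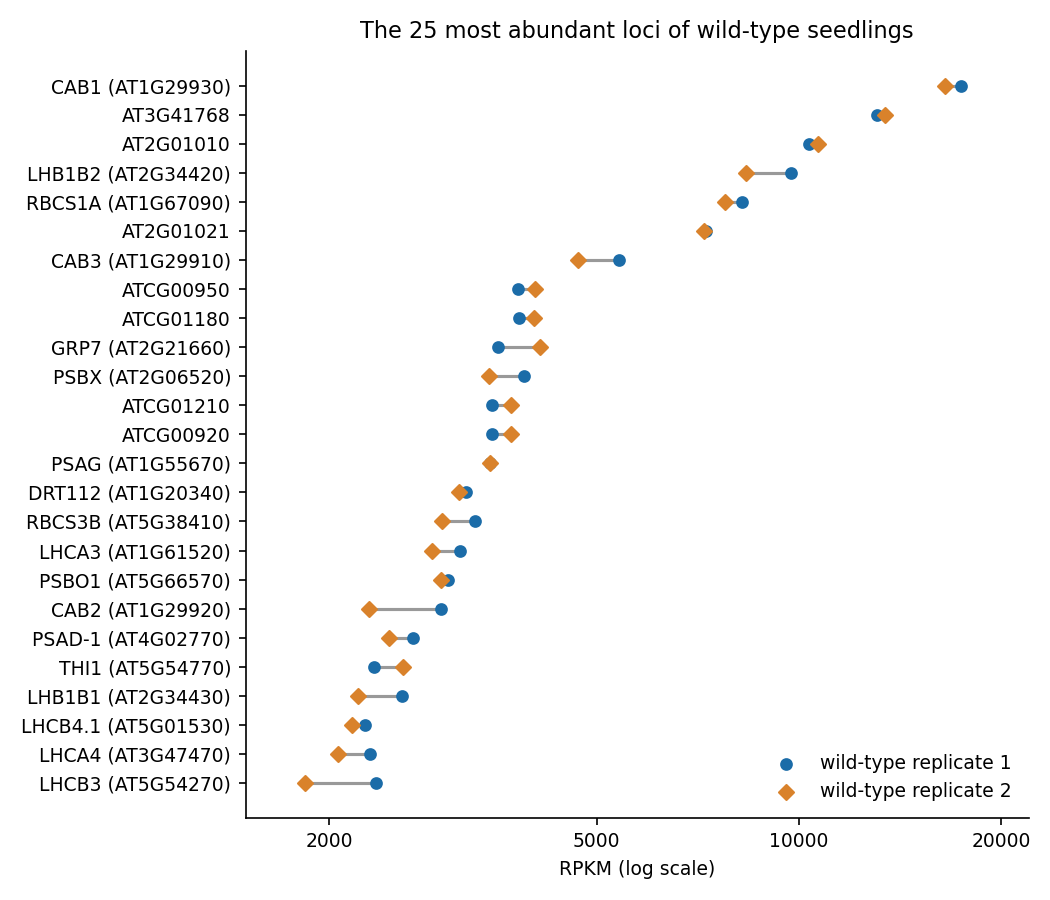
RPKM (horizontal axis, logarithmic) of the 25 loci with the highest mean RPKM in wild-type seedlings, from the highest at the top, with circles for replicate 1, diamonds for replicate 2 and a line between them. CAB1 leads at 17475 and 16538 RPKM in replicates 1 and 2, and 16 of the 25 loci belong to the photosynthesis lists.

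Nuclear genes outside photosynthesis entered the upper 25 only with GRP7 (AT2G21660) and THI1 (AT5G54770), besides the ribosomal RNA loci and AT2G01021. GRP7, which encodes a glycine-rich RNA-binding protein of the circadian system that also responds to cold, had 3566 and 4112 RPKM in replicates 1 and 2. THI1, for the enzyme that makes the thiazole part of thiamine in plastids, had 2329 and 2578 RPKM. Further down, genes for proteins of the cell wall and surface made up 7 of the 100 loci, with GER3 (AT5G20630) and GER1 (AT1G72610), germin-like proteins, at 1978 ± 51.8 and 1746 ± 491 RPKM and the extensin-like gene ELP (AT1G12090) at 1223 ± 78.0 RPKM (SD, n = 2 each). Antioxidant enzymes added the peroxidase gene PRXR1 (AT4G21960) at 1241 ± 37.0 RPKM, the catalase gene CAT3 (AT1G20620) at 1066 ± 3.24 RPKM and the glutathione transferase gene GSTF9 (AT2G30860) at 911 ± 129 RPKM. CAT3 was 17.9 and 19.2 times as high as CAT2 (AT4G35090) in replicates 1 and 2. The pair of chlorophyll synthesis genes was PORB (AT4G27440), for protochlorophyllide oxidoreductase, at 875 ± 29.3 RPKM and geranylgeranyl reductase (AT1G74470) at 687 ± 7.02 RPKM. Others were TCTP (AT3G16640) at 1143 ± 4.96 RPKM, the chaperone gene HSC70-1 (AT5G02500) at 866 ± 39.7 RPKM and the fatty acid desaturase gene FAD2 (AT3G12120) at 678 ± 14.9 RPKM. Just inside the limit of the upper 100 stood CP12-2 (AT3G62410) at 617 RPKM and AT1G64370 at 596 RPKM, and just outside it PDE334, for a subunit of the plastid ATP synthase, at 586 RPKM.

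Ranking by CPM moved long genes up. Of the 100 loci with the highest mean RPKM, 75 were also among the 100 with the highest CPM. Those that entered by CPM included the lipoxygenase gene LOX2 (AT3G45140; 3942 bases, rank 45 by CPM and 145 by RPKM), LOS1 (AT1G56070; rank 46 and 141), which encodes a translation elongation factor, and the chaperone gene CLPC1 (AT5G50920; rank 50 and 193). GUN5 (AT5G13630), for a subunit of magnesium chelatase in chlorophyll synthesis, ranked 71 by CPM and 271 by RPKM. The median length of the 100 loci was 1627 bases by CPM and 1180 bases by RPKM.

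The cellular housekeeping lists stood below photosynthesis but above most loci. The ribosomal protein list, 69 loci whose names in the name table give a cytosolic, plastid or mitochondrial ribosomal protein, held 1.58% and 1.54% of the summed RPKM in replicates 1 and 2, with 40 loci among the 1000 most abundant and a median of 109 RPKM. Many ribosomal protein genes carry no such name and were not in the list. Its abundant members included RPL12-A (AT3G27830) at 501 and 496 RPKM, RPL12-C (AT3G27850) at 426.6 and 426.8 RPKM and PSRP6 (AT5G17870) at 362 and 367 RPKM, all of the plastid ribosome. The 27 initiation and elongation factor loci had a median of 27.2 RPKM, with EIF4A1 (AT3G13920) at 208, eEF-1Bb1 (AT1G30230) at 155, FBR12 (AT1G26630) at 151 and EIF3C (AT3G56150) at 93.1 RPKM. The list was made from names and does not hold LOS1, at 433.5 RPKM. It also lacks RABE1b (AT4G20360), assigned by hand to protein synthesis, folding and turnover, at 813.7 RPKM. AT5G60390, at 1098.6 RPKM and without a descriptive name, is not in it either. The median and the highest value are therefore those of the listed loci and not of all translation factors. The 12 ubiquitin loci held 0.491% and 0.473%, led by UBQ10 (AT4G05320) at 691 ± 5.72 RPKM, UBQ3 (AT5G03240) at 528 RPKM, UBQ5 (AT3G62250) at 510.3 RPKM and UBQ6 (AT2G47110) at 422 RPKM.

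Tubulins and actins, the subunits of microtubules and of actin filaments, held 0.578% and 0.621% with 22 loci. The highest were TUA6 (AT4G14960) at 441 RPKM, TUA4 (AT1G04820) at 311 RPKM, TUB4 (AT5G44340) at 291 RPKM and ACT2 (AT3G18780) at 280.04 RPKM. Of the 31 histone loci, 13 were among the 1000 most abundant and the median was 62.6 RPKM. HTB4 (AT5G59910) and HTB2 (AT5G22880) for histone H2B averaged 243 and 176 RPKM, and histone H3 loci AT5G65360 (H3.1) and AT4G40030 (H3.3) 157 and 145 RPKM. Histone and tubulin copies are alike in sequence, so values of single copies are uncertain.

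Water channels were a further abundant family. The 22 aquaporin loci held 0.554% and 0.666% of the summed RPKM in replicates 1 and 2. The tonoplast aquaporin gene TIP2 (AT3G26520) had 776 and 963 RPKM and DELTA-TIP (AT3G16240) 305 and 548 RPKM. Of the plasma membrane aquaporins, PIP3 (AT4G35100) had 393 and 520.3 RPKM and PIP1B (AT2G45960) 422 and 407 RPKM. BETA-TIP (AT1G17810), an aquaporin of seed storage vacuoles, had 0.119 and 0.418 RPKM.

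Metallothioneins, small cysteine-rich proteins that bind metals, held 0.673% and 0.698% of the summed RPKM with only 5 loci, all among the 1000 most abundant. MT1A (AT1G07600) averaged 1137 ± 39.9 RPKM, MT2B (AT5G02380) 1021 ± 17.4 RPKM, MT2A (AT3G09390) 929 ± 112 RPKM and MT3 (AT3G15353) 586 ± 15.5 RPKM (SD, n = 2 each). The gene model of MT1A overlaps AT1G07590, which had 10092 and 12541 counts against 7622 and 8989 for MT1A, so reads may be shared. Genes of the methyl cycle, which supplies S-adenosylmethionine, held 0.261% and 0.250% with 4 loci: HOG1 (AT4G13940) at 671 RPKM, ATMS1 (AT5G17920) at 327 RPKM, SAM1 (AT1G02500) at 248 RPKM and SAM-2 (AT4G01850) at 193 RPKM.

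Genes named for cold and dehydration were well expressed in seedlings for which the labels name no stress treatment. The 10 loci held 1.03% and 1.102% of the summed RPKM in replicates 1 and 2, most of it from GRP7. After GRP7 came COR15A (AT2G42540), a cold-regulated plastid protein, at 485 and 512 RPKM, the RNA-binding protein gene CCR1 (AT4G39260) at 444 and 422 RPKM and COR15B (AT2G42530) at 363 and 343 RPKM. KIN2 (AT5G15970) had 295 and 261 RPKM, whereas its copy KIN1 (AT5G15960) had 7.54 and 4.22 RPKM. Reads shared between copies, here or between COR15A and COR15B, could change their split. Glucosinolate defence was represented by the myrosinase genes TGG1 (AT5G26000) at 672 ± 7.96 RPKM and TGG2 (AT5G25980) at 188 RPKM and by PYK10 (AT3G09260), a beta-glucosidase of root ER bodies, at 356 RPKM. ESM1 (AT3G14210), a modifier of glucosinolate breakdown, followed at 170.1 RPKM. The salicylic acid markers were low, PR5 (AT1G75040) at 2.17 and 2.16 RPKM and BGL2 (AT3G57260) at 0.475 and 1.73 RPKM in replicates 1 and 2. The 6 lipid transfer protein loci, led by LP1 (AT2G38540) at 743 ± 42.7 RPKM and LTP2 (AT2G38530) at 155 RPKM, held 0.208% and 0.193%, with EARLI1 (AT4G12480) at 103 RPKM and LTP3 (AT5G59320) at 51.9 RPKM next.

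**Figure D3:**
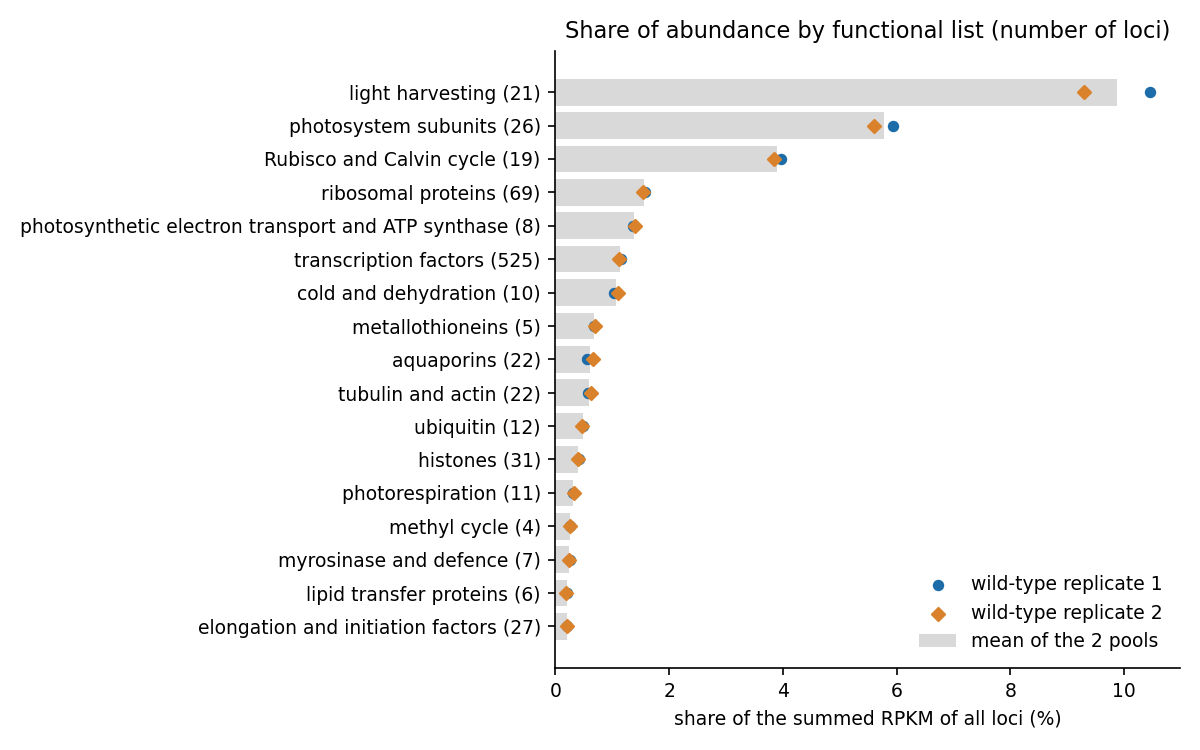
Share of the summed RPKM of all loci, in percent, for 17 functional lists with the number of loci of each in brackets. Grey bars give the mean of the wild-type pools, circles replicate 1 and diamonds replicate 2. Light harvesting leads with 10.5% in replicate 1 and 9.29% in replicate 2, ahead of the photosystem subunits at 5.94% and 5.61%.

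Transcription factors were low. The 525 loci of this list held 1.16% and 1.12% of the summed RPKM in replicates 1 and 2, less than the 5 LHCB1 copies. Their median was 4.60 RPKM against 6.43 RPKM over all loci. Of these loci, 17.1% had less than 1 RPKM (10.2% of all loci), 26.3% had 10 to 100 RPKM (32.8% of all loci), and 7 loci or 1.33% had at least 100 RPKM (3.38% of all loci). None reached 1000 RPKM. The most abundant was DEWAX (AT5G61590), an AP2/ERF factor that represses wax synthesis, at 297 RPKM in replicate 1 and 395 RPKM in replicate 2. BBX14 (AT1G68520) had 252 and 319 RPKM, COL3 (AT2G24790) 189.4 and 200.2 RPKM and BBX15 (AT1G25440) 148 and 129 RPKM. These last 3 encode B-box zinc finger proteins, a family known for roles in light and photoperiod responses. Of the 14 factors among the 1000 most abundant loci, 5 were B-box proteins of the BBX or CONSTANS-like (COL) names. The others included HB6 (AT2G22430), a homeodomain-leucine zipper gene, at 115 RPKM and TCP14 (AT3G47620) at 98.4 RPKM.

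Markers of leaf, root and vascular tissue were all counted in both pools. The leaf mesophyll markers RBCS1A, CAB2 (the LHCB1.1 gene) and the carbonic anhydrase gene CA1 (AT3G01500; 451 and 432 RPKM) summed to 11602 and 10504 RPKM in replicates 1 and 2. The 3 root markers summed to 383 and 359 RPKM, nearly all from PYK10 at 367 and 344 RPKM. The phosphate exporter gene PHO1 (AT3G23430) averaged 13.3 RPKM and the nitrate transporter gene NRT2.1 (AT1G08090) 2.32 RPKM. SUC2 (AT1G22710), the companion cell sucrose transporter, had 82.4 and 83.3 RPKM, SEOR1 (AT3G01680) averaged 17.7 RPKM and the phloem regulator APL (AT1G79430) 9.80 RPKM. The xylem markers IRX3 (AT5G17420), IRX5 (AT5G44030) and XCP1 (AT4G35350) averaged 5.91, 7.09 and 16.1 RPKM.

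The guard cell markers MYB60 (AT1G08810), FAMA (AT3G24140) and EPF1 (AT2G20875) averaged 5.71, 5.50 and 4.51 RPKM. Of the trichome markers, GL2 (AT1G79840), which also acts in root epidermis, had 3.65 RPKM and GL1 (AT3G27920) 1.07 RPKM. The endodermis regulator SCR (AT3G54220) averaged 19.5 RPKM and CASP1 (AT2G36100) 3.71 RPKM. The root hair markers EXPA7 (AT1G12560) and COBL9 (AT5G49270) averaged 1.08 and 0.912 RPKM, the root cap marker SMB (AT1G79580) 0.412 RPKM and the meristem gene STM (AT1G62360) 0.863 RPKM, from 17 to 52 counts per pool for these genes. In pooled whole seedlings, fewer cells of a type and less RNA per cell cannot be told apart.

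The seed storage protein genes CRA1 (AT5G44120) and CRC (AT4G28520, CRU3 in the name table) were higher in replicate 2. CRA1 had 13.7 RPKM in replicate 2 and 6.62 RPKM in replicate 1, and CRC 6.06 RPKM in replicate 2 and 0.968 RPKM in replicate 1. The oil body gene OLEO1 (AT4G25140) had 1.30 and 1.39 RPKM in replicates 2 and 1. The floral gene SEP3 (AT1G24260) was low in both, with 10 counts in replicate 2 and 47 in replicate 1. The other meristem, floral and seed markers and the pollen markers were not analysed here.

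**Figure D4:**
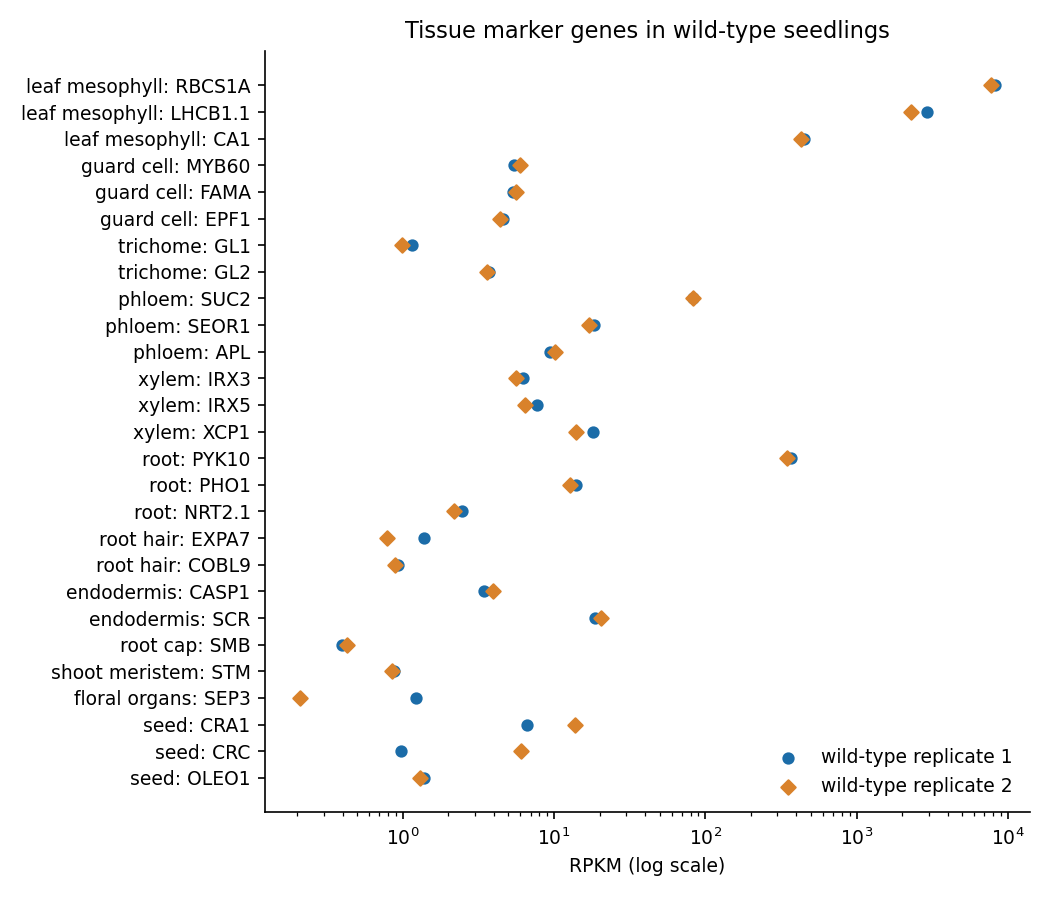
RPKM (horizontal axis, logarithmic) of the tissue marker genes in wild-type seedlings, with circles for replicate 1 and diamonds for replicate 2. Leaf mesophyll markers lie highest, PYK10 and SUC2 follow, and the pools differ most for CRC, SEP3 and CRA1.

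The pools were set against each other by the log2 ratio of replicate 2 over replicate 1, computed on RPKM + 0.1. Over the 18588 loci of at least 1 RPKM, Pearson's r of log2 RPKM was 0.985 and Spearman's rho 0.984. These describe agreement across loci, which are not independent replicates. The pools shared 9 of their 10, 95 of their 100 and 927 of their 1000 most abundant loci. The log2 ratio had an SD of 0.30 and a median near zero (-0.003). More than 2-fold apart were 216 loci, which is 1.16% of those of at least 1 RPKM. Of these, 75 (0.403%) were higher in replicate 2 and 141 (0.759%) higher in replicate 1.

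Agreement depended on abundance. The SD of the log2 ratio was 0.33 for loci of 1 to 10 RPKM, 0.25 for 10 to 100, 0.24 for 100 to 1000 and 0.21 for the 57 loci of at least 1000 RPKM. The spread from counting alone, computed from the counts, was 0.22, 0.09, 0.03 and 0.01 in the same classes. Below 1 RPKM the SD was 0.59 and the counting spread 0.57, from median counts of 20 in replicate 2 and 16 in replicate 1. The added 0.1 RPKM shrinks ratios of such low values, whereas the counting spread was computed without it. The SD and the counting spread below 1 RPKM are therefore not on the same scale, and their closeness does not show that counting explains the spread. Past 2-fold were 8.42% of loci below 1 RPKM, 1.504% of those at 1 to 10, 0.648% at 10 to 100 and 0.778% at 100 to 1000. Of the 57 loci of at least 1000 RPKM, 0 were past 2-fold, as were 0 of the 100 most abundant loci, whose log2 ratios ran from -0.59 for LHCB2.1 to 0.86 for AT2G45180. The median coefficient of variation between the pools was 6.55% over the 100 and 5.30% over the 1000 most abundant loci.

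**Figure D5:**
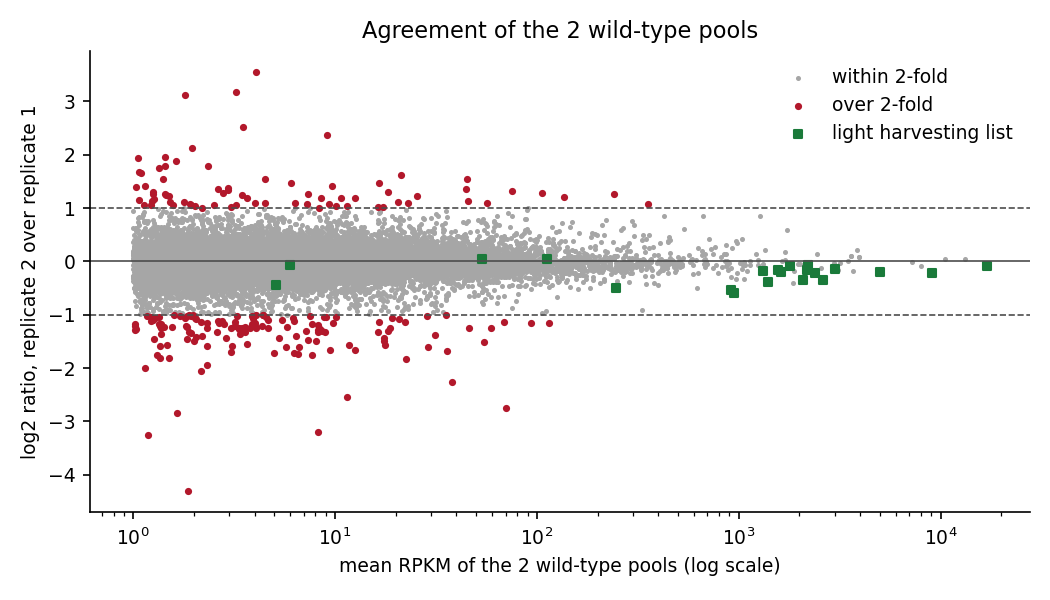
Log2 ratio of RPKM + 0.1, replicate 2 over replicate 1, against the mean RPKM of the wild-type pools (logarithmic) for the 18588 loci of at least 1 RPKM. Red points are the 216 loci over 2-fold apart (dashed lines), and green squares the light-harvesting list, of which 19 of 21 lie below zero.

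Among the 1000 most abundant loci, 7 were past 2-fold (0.700%). The 5 higher in replicate 2 were led by BXL1 (AT5G49360), a cell wall xylosidase gene, with 108 RPKM in replicate 2 and 43.2 RPKM in replicate 1 (log2 ratio 1.32). AT5G14120, which has no descriptive name, had 150.01 and 61.3 RPKM, the fasciclin-like arabinogalactan gene FLA9 (AT1G03870) 339.6 and 141 RPKM, and the hexose transporter gene STP1 (AT1G11260) 191 and 82.7 RPKM in replicates 2 and 1. DIN10 (AT5G20250), named for its induction in the dark, had 480.02 RPKM in replicate 2 and 229 RPKM in replicate 1. The 2 higher in replicate 1 were AT2G41410, at 71.3 RPKM in replicate 2 and 159 RPKM in replicate 1, and AT3G46600, at 58.5 and 129.7 RPKM. Next to them, within 2-fold, were the dehydration gene LTI78 (AT5G52310; 71.6 RPKM in replicate 2 and 139.5 RPKM in replicate 1), AT2G46600 (76.4 and 146 RPKM) and TCH4 (AT5G57560), a cell wall xyloglucan enzyme gene named for its response to touch, with 231 and 437 RPKM.

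Of the 21 light-harvesting loci, 19 were lower in replicate 2, with a median log2 ratio of -0.20 against -0.003 over all loci of at least 1 RPKM. The LHCB2 copies differed most, with a median of -0.54 and 1706 RPKM together in replicate 2 against 2515 RPKM in replicate 1. Of the 26 photosystem loci, 23 were lower in replicate 2 (median -0.09), and of the 31 histone loci 22 (median -0.14). Also lower in replicate 2 were 7 of 12 ubiquitin loci (median -0.12) and 46 of 69 ribosomal protein loci (median -0.05). Of the 10 cold and dehydration loci 8 were lower in replicate 2 (median -0.14), although the list's share of summed RPKM was 1.102% in replicate 2 and 1.031% in replicate 1. Over all loci of at least 1 RPKM, 50.6% were lower in replicate 2. The Calvin cycle list had a median of -0.02 and the photorespiration list of 0.03. Apart from the transcription factors, few listed loci of at least 1 RPKM were past 2-fold: the aquaporin genes TIP2;3 (AT5G47450; 2.71 RPKM in replicate 2 and 6.61 RPKM in replicate 1) and TIP3;1 (AT1G73190; 2.11 and 0.919 RPKM), the lipid transfer gene AZI1 (AT4G12470; 23.6 and 47.3 RPKM) and the defence gene BGL2 (1.73 RPKM in replicate 2 and 0.475 RPKM in replicate 1). Of the 74 loci of the 4 photosynthesis lists 0 were past 2-fold, beside 1.16% of all loci of at least 1 RPKM, a share that would come to less than 1 of 74.

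Transcription factors differed more between the pools than loci at large. Of the 435 factors of at least 1 RPKM, 23 were past 2-fold, which is 5.29% against 1.16% of all such loci. Of these 23, 4 were higher in replicate 2 and 19 higher in replicate 1. The SD of their log2 ratio was 0.44 against 0.30, with median counts of 215 and 182 in replicates 2 and 1 against 333 and 269 over all loci. Within abundance classes the share past 2-fold was 5.52% against 1.504% at 1 to 10 RPKM and 5.07% against 0.648% at 10 to 100 RPKM. In the higher of these classes the median counts of the factors, 771 in replicate 2 and 640.5 in replicate 1, were near those of all loci, 840.0 and 676. These shares were looked at after the values were seen, and they describe a pair of pools.

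Among the factors lower in replicate 2, the ethylene response factor gene ERF105 (AT5G51190) had 3.28 RPKM in replicate 2 and 19.5 RPKM in replicate 1, from 53 and 255 counts. WRKY70 (AT3G56400) and WRKY33 (AT2G38470), both regulators of defence, had 14.3 and 43.5 RPKM and 8.88 and 26.4 RPKM in replicates 2 and 1. ERF104 (AT5G61600) had 27.5 and 65.2 RPKM and MYB77 (AT3G50060) 9.83 and 35.2 RPKM. MYB29 (AT5G07690), a regulator of aliphatic glucosinolate synthesis, had 5.90 RPKM in replicate 2 and 17.7 RPKM in replicate 1. Of the 4 that were higher in replicate 2, WRKY18 (AT4G31800) had 12.8 RPKM in replicate 2 and 6.00 RPKM in replicate 1. WRKY29 (AT4G23550) had 5.12 RPKM in replicate 2 and 2.199 RPKM in replicate 1, and the homeodomain gene HB4 (AT2G44910) 3.83 RPKM in replicate 2 and 1.44 RPKM in replicate 1. The fourth, BZS1 (AT4G39070), had 2.63 RPKM in replicate 2 and 1.196 RPKM in replicate 1. Outside the lists, AT4G27280, without a descriptive name, had 18.1 RPKM in replicate 2 and 122 RPKM in replicate 1, and ACD6 (AT4G14400), a defence gene, 15.4 and 2.90 RPKM.

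Genes often used as internal standards covered a wide range of levels. UBQ10 had 695 RPKM in replicate 2 and 687 RPKM in replicate 1, ACT2 308 and 252 RPKM, and GAPC1 (AT3G04120) 129 and 149 RPKM. PEX4 (AT5G25760) averaged 11.3 RPKM, AT5G46630 11.2 RPKM, PP2AA3 (AT1G13320) 10.3 RPKM, AT2G28390 5.54 RPKM and UPL7 (AT3G53090) 4.35 RPKM, so the highest was 159 times the lowest. Of the 8 genes, 6 had a log2 ratio within 0.1 of zero, as had 37.6% of all loci of at least 1 RPKM. The exceptions were ACT2 at 0.29 and GAPC1 at -0.21, beside a median absolute log2 ratio of 0.10 over loci of 100 to 1000 RPKM.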

How the data were processed

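The wild-type mRNA libraries were used, and the others were set aside because the question was the wild-type profile alone. The whole-number counts per locus were deposited by the authors, per the file headers, with another unit, the locus length in bases. The authors also deposited CPM and RPKM, scaled to the counts of the table, and the values computed here from counts and length equalled them to the deposited 3 decimals. BWA 0.5.8c, Bowtie, edgeR and the build TAIR9 appear in the submitters' processing notes. What each of them made, and whether counting used strand, are not given in the sources used here. A further 6 columns of transgenic libraries were not used.

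RPKM were computed per library total and averaged over the pools (Python 3.11.15, pandas 2.3.3). Of 20701 loci, 20420 (98.6%) were found in a RefSeq name table of a later build, used for names, neighbours and overlaps only. Sequences and coordinates are not shown. The floor for a locus with a count of 0, taken as 3 counts, was 0.191 CPM in replicate 1 and 0.154 CPM in replicate 2, which covers counting error only. The pools were compared by a 2-fold rule on RPKM + 0.1 for loci of at least 1 RPKM. The calculation recovered large planted changes on simulated data. No change was planted near 2-fold or in loci of low counts, so recovery there was not tested. TMM factors came from edgeR 4.0.16 in R 4.3.3.

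Named were the 25 most abundant loci, those at ranks 99 to 102, up to 4 of the highest in each list, the 5 largest ratios in each direction among the 1000 most abundant loci, and the tissue markers. A locus that this rule names is not reported here. Other loci of the upper 100, further list members, gene copies and the loci gained by CPM were named after their values were seen. The lists and members were chosen with earlier results of these data known, and the lists are not complete. Some genes without a name in the name table were left out, while others, such as AT3G60750 and AT5G65360, were kept. Functions of the upper 100 were assigned by hand from the names. Alternatives were TMM factors, TPM, a geometric mean, CPM, filters on counts, other pseudocounts and folds, nuclear loci, and each pool left out. Restriction to nuclear protein-coding loci and the gene span as length were added after seeing the data.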

Additional observations from a re-analysis of the deposited data

How the results depend on the processing

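With TPM, which rescale RPKM to a fixed sum, 1354 loci reached 100 and 106 reached 1000, against 700 and 57 by RPKM. The share of the 10, 100 and 1000 most abundant loci was 14.5%, 36.3% and 62.8% of the summed RPKM as a mean of the pools. As shares of counts with ranking by CPM it was 11.8%, 28.1% and 54.0%, among nuclear loci only 15.1%, 35.6% and 62.0%, and among nuclear protein-coding loci only 12.6%, 33.1% and 60.7%. With 1 pool left out, the share of the upper 10 ranged from 14.4% to 14.7%. As shares of counts, the 4 photosynthesis lists held 14.2% in place of 20.9%, light harvesting 6.59% in place of 9.87%, photosystem subunits 3.49% in place of 5.77% and Rubisco with the Calvin cycle 3.32% in place of 3.90%. The loci past 2-fold numbered 216, against 99 with a pseudocount of 1 RPKM, 394 over all loci and 965 at a threshold of 1.5-fold. Of 87 recomputed values, 68 stayed within the spread of the pools or, for counts, correlations and SDs, within 1.5 times the main value. A change of direction was not scored. A list share with 1 pool left out must lie within that spread, and a high correlation can hardly pass the 1.5-times limit. The 68 is therefore not a measure of robustness. Of the 100 most abundant loci, 96 were kept with the gene span of the name table as length, and 97 and 98 by replicates 2 and 1 alone. No paired analysis was possible because the 2 pools form a single group. With 2 pools, the SD of a value rests on 1 difference. Loci of low counts are limited by depth.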
